A study of Mus musculus with 4 samples.

Results

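Integrins and the proteins that tie them to the matrix and to the cytoskeleton were measured in structures cut by laser from sections of fetal mouse kidney. The 34 genes were chosen by name, with earlier results of these data known. They are 17 integrin subunits, the integrin ligand Npnt, the Fraser complex genes Fras1, Frem1 and Frem2, and 13 adaptors, linkers and other matrix receptors. Of these, 31 were matched by 89 probe sets that carry 1 gene symbol, out of 18193 genes named on the array. Itga11, Fermt1 and Ptk2 had no such probe set and were not analysed here. Of the 31, 27 had a mean above the level under which genes were taken as dim (a log2 value of 8.416), and the other 4 were Itga7, Itgb3, Itgb4 and Itgb8.

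The study captured 2 structures of the wild-type CD-1 kidney at stage E15.5 (Theiler stage 23; E stands for embryonic day), and no treatment is named. For the cortical collecting duct, a derivative of the ureteric bud, 1 array was used, numbered 3. For the anlage of the loop of Henle, a nephron segment that forms from the metanephric mesenchyme, there were 3 arrays, numbered 1 to 3. About 50 sections from 5 kidneys were pooled per array, from fetuses of unknown sex, CD-1 being an outbred stock. The labels do not say whether pools shared kidneys or litters. P-values and standard errors (SE) thus measure only the spread between the 3 anlage arrays, which may be partly technical. The 1 collecting duct array was taken to vary as the anlage arrays do.

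Integrins are receptors made of 1 alpha and 1 beta chain that cross the cell membrane, bind matrix proteins outside and connect to actin or intermediate filaments inside through adaptor proteins. In the kidney, the integrin alpha chain Itga8 on the metanephric mesenchyme and its ligand nephronectin, made by the ureteric bud, are needed for the bud to grow in. Integrins that bind laminin hold tubule cells to their basement membrane, and the Fraser complex of Fras1, Frem1 and Frem2 joins epithelium to the matrix beneath it.

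Values below are log2(normalized signal + 109.6), and a difference is the collecting duct value minus the mean of the 3 anlage arrays. The offset makes differences of faint genes come out too small. Levels were not compared between genes, since each probe set has its own brightness. Of 10 collecting duct markers, 10 read higher on the collecting duct array, and of 10 loop markers, 10 read lower. These lists were chosen with earlier results of these data known, so the counts describe the arrays and are no independent check of the tissue labels. For Gapdh, signal at the 3' end over that at the 5' end, a sign of shortened RNA when large, came to 12.0 for the collecting duct and to 10.3, 54.1 and 26.02 for anlage arrays 1, 2 and 3. In a bulk sample, fewer cells of a type and less RNA per cell cannot be told apart.

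No adhesion gene passed the test, and neither did any other gene with all 4 arrays in the fit. The median difference of the 27 tested members was −0.06, and that of all 12642 tested genes was −0.06. The medians parted when an anlage array was left out: without array 2 they were −0.27 for members and −0.011 for all genes, and without array 3 −0.12 and −0.030. Without array 1 they were −0.27 and −0.19, or −0.095 and −0.17 when each gene kept its probe set. By sign, 12 members read higher in the collecting duct and 15 lower, where 45.1% of all tested genes read higher and 54.9% lower. With limma and Benjamini-Hochberg adjustment over all genes, 0 members were called higher and 0 lower (background 0% of genes each way), and the smallest adjusted p among them was 0.9999. At an unadjusted p under 0.05 there was 1 member higher, Npnt, and 1 lower, Itga6, where 1.18% and 2.23% of all genes reached that level. The collecting duct value lay above all 3 anlage arrays for 3 members (Npnt, Itgb5 and Cd151), or 11.1%, against 17.3% of all tested genes. It lay below all 3 for 8 members (Itga3, Itga4, Itga6, Itga8, Itga9, Lims1, Vcl and Dst), or 29.6%, against 24.3% of all tested genes. Without anlage array 2, 48.1% of members lay below both arrays left, against 30.5% of all genes. The gap was smaller without the other arrays. Without array 1 the shares were 50% and 47.5%, or 42.9% and 46.6% when each gene kept its probe set. Without array 3 they were 33.3% and 28.5%, or 29.6% and 28.6% with probe sets kept. With arrays scaled to a common median, Itga4, Itga6 and Dst were the 3 of the 8 named members that still lay below all anlage arrays. With the mean of all probe sets they were Itga4, Itga6, Itga8 and Itga9. Cd151 lay inside the anlage range in both of these settings, while Npnt and Itgb5 stayed above all 3.

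**Figure D1:**
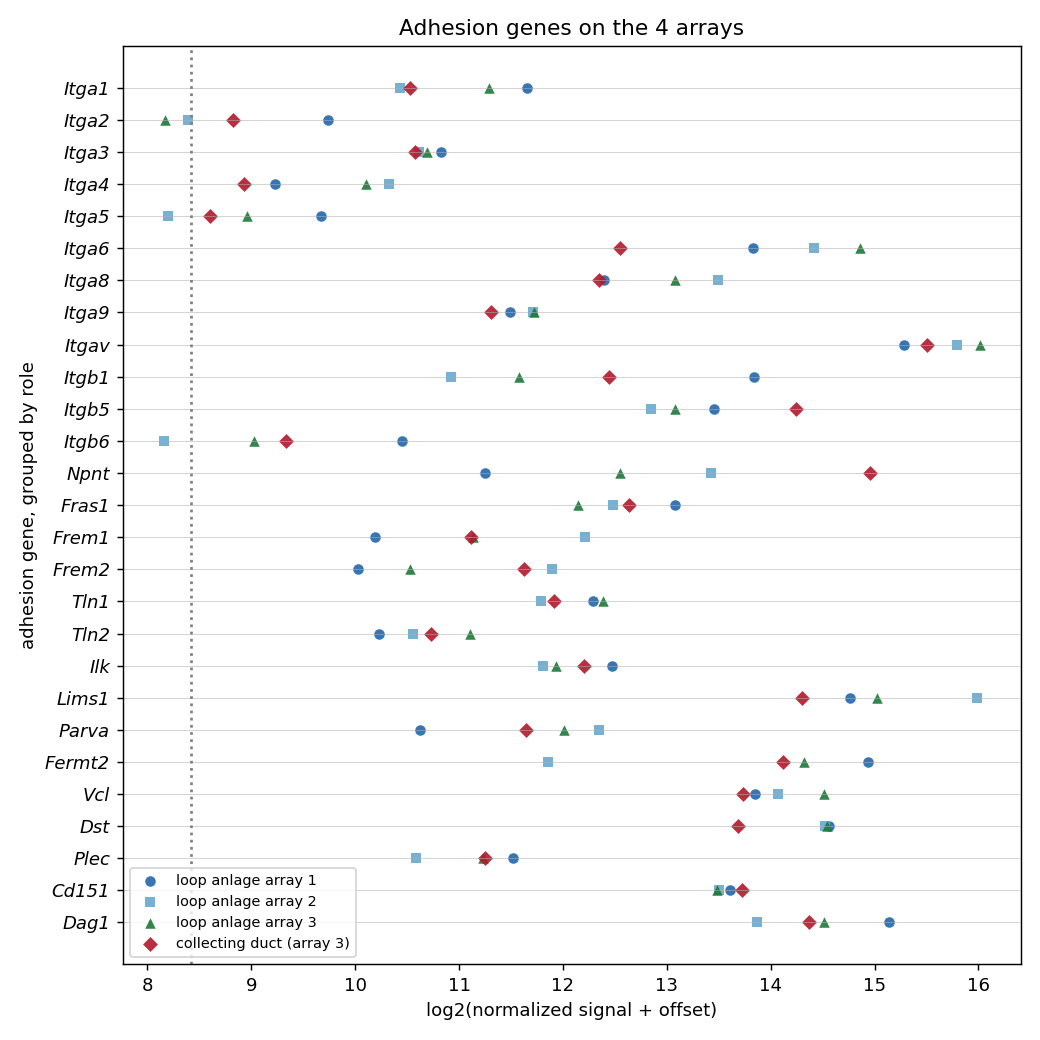
Log2 values of the 27 tested adhesion genes (rows, grouped by role) on the collecting duct array (red diamonds) and loop anlage arrays 1 (dark blue circles), 2 (light blue squares) and 3 (green triangles); the dotted line is the dim level of 8.416. The red diamond stands right of all other points for Npnt, Itgb5 and Cd151 and left of all for 8 genes, with the widest gaps for Npnt, Itgb5, Itga6 and Dst.

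Npnt had the greatest difference of any member. It encodes nephronectin, a basement membrane protein of the ureteric epithelium that binds the integrin of Itga8 and Itgb1. Its brightest probe set (1452106_at) read 14.96 for the collecting duct and 11.25, 13.43 and 12.55 for anlage arrays 1, 2 and 3. The collecting duct value lay above all 3, and the anlage arrays themselves were spread widely. The difference was 2.55 ± 0.85 (SE), a 5.85-fold higher value, against an anlage mean of 12.41 ± 1.09 (SD, n = 3; limma, adjusted p = 0.9999). Of all tested genes, 99.8% had a difference at or below that of Npnt.

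The other probe sets of Npnt were split. The probe set 1452107_s_at gave 14.53 in the collecting duct array against 10.96, 12.80 and 11.71, a difference of 2.71. The probe set 1421429_a_at had a mean below the dim level but stood apart in the collecting duct array at 9.11, against 7.14, 7.43 and 6.95. The fainter probe set 1426561_a_at differed by 0.63 and 1426560_a_at by −0.09. The mean of all 5 probe sets differed by 1.54. Leaving out anlage array 1 gave 1.98 and leaving out array 2 gave 3.03.

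Within the anlage, array 2 had the highest Npnt value on both bright probe sets. Array 2 also had the highest summed normalized signal of the 10 collecting duct markers, at 46529, against 12272 and 10088 in arrays 1 and 3 and 105874 in the collecting duct array. Much of that sum is Calb1, which read 14.86 on array 2 and 13.87 on the collecting duct array. Without Calb1 the sums were 16851 for array 2, 9489 and 7672 for arrays 1 and 3, and 90965 for the collecting duct. Of the 10 markers, 8 were highest of the anlage arrays on array 2. The share of all tested genes with array 2 highest was 34.4% in the order 2, 3, 1 and 11.3% in the order 2, 1, 3. Array 2 also had the highest anlage sums of cap mesenchyme markers (21490, against 7661 and 5819) and podocyte markers (20893, against 5211 and 6288). Its sums of loop markers (32504, against 144653 and 99736) and stromal markers (142685, against 155941 and 361111) were the lowest. All 10 collecting duct markers were above the dim level, and the part of collecting duct signal in the Npnt values was not tested.

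Itga8, the alpha chain that binds nephronectin, read lower in the collecting duct. Its brightest probe set read 12.34 for the collecting duct and 12.39, 13.49 and 13.08 in the anlage, and its difference was −0.64 ± 0.58 (SE). The collecting duct value lay below all 3, but close to that of anlage array 1, and inside the anlage range with arrays scaled to a common median. The second probe set read 11.25 against 12.93, 12.06 and 11.62, a difference of −0.95. Here anlage array 1 was the highest of the 4 arrays, so the probe sets placed the anlage arrays in different orders while both put the collecting duct lowest. The ligand and its receptor chain thus had values on opposite sides, higher for Npnt and lower for Itga8, neither passing the test over all genes.

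Itga8 is known from metanephric mesenchyme and stroma. Of 5 tested cap mesenchyme markers, 1 read higher and 4 lower in the collecting duct. The summed signal, which includes the dim Cited1, was 8689 for the collecting duct and 5819 to 21490 in the anlage. Of 10 stromal markers, 4 had a higher and 6 a lower value, with sums of 177333 and 142685 to 361111. The part of these cells in the Itga8 values was not tested.

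The promoters of Npnt and Itga8, as the ligand and receptor pair, and of Itgb5, the integrin chain with the highest difference, are printed here as the 250 bases before the start in RefSeq (GRCm38.p6), 5′ to 3′ on the gene's strand. Capitals mark the GC box, searched as GGGCGG on both strands. Npnt lies at chr3:132950292-132950541 on the minus strand (the farther upstream of the starts listed), Itga8 at chr2:12301945-12302194 on the minus strand, and Itgb5 at chr16:33829415-33829664 on the plus strand.
Npnt promoter: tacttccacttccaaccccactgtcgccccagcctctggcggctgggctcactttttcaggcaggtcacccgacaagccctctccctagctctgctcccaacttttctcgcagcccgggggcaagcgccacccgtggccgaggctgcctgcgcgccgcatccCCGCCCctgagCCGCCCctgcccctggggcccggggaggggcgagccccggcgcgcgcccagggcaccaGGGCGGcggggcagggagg
Itga8 promoter: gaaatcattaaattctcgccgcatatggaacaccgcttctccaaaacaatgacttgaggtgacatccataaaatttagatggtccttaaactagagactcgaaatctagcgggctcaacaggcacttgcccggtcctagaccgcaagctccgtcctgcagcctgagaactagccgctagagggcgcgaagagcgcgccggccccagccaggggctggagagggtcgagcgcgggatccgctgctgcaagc
Itgb5 promoter: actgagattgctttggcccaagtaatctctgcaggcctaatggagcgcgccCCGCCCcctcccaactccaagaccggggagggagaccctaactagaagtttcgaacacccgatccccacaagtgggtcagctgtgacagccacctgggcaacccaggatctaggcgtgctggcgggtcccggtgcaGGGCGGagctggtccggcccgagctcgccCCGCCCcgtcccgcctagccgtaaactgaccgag

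The GC content of these stretches was 74.0% for Npnt, 56.4% for Itga8 and 65.2% for Itgb5. The median was 52.4% over 32851 listed starts and 62.4% over the 35 starts of members. Npnt and Itgb5 each held 3 GC boxes and Itga8 held 0. Of all stretches of this length 32.74% held at least 1, and of those of members 45.7%. The E box, searched as CANNTG, was found 0 times in Npnt, 2 times in Itga8 and 3 times in Itgb5. It was in 66.22% of all stretches and 77.1% of those of members. The letters AGATAA (both strands, a GATA motif), TATAAA and AACCNGTT (a grainyhead motif) were in none of the 3 stretches, and in 9.99%, 12.37% and 1.79% of all. These matches describe the letters only. Of the 34 genes, 25 had a promoter in the table, and Itga6 was not among them.

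Among the integrin alpha chains, Itga6 stood apart. Itga6 pairs with Itgb1 or Itgb4 to bind laminin, and with Itgb4 it forms hemidesmosomes. Its brightest probe set (1422445_at) read 12.55 for the collecting duct and 13.83, 14.41 and 14.86 in the anlage. The difference was −1.82 ± 0.52 (SE), a 3.52-fold lower value, against an anlage mean of 14.37 ± 0.52 (SD, n = 3; limma, adjusted p = 0.9999). Only 1.30% of tested genes had a difference at or below it. The other probe set, 1422444_at, read 10.83 against 13.16, 11.17 and 12.94, a difference of −1.59. On both, the collecting duct was the lowest of the 4 arrays, though anlage array 2 came close to it on the second. Across the alternatives tried the difference ran from −2.11 to −1.54.

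Of the 9 tested alpha chains, 8 read lower in the collecting duct, as did 54.9% of all genes, and 5 lay below all 3 anlage arrays (55.6%, against 24.3% of all genes). With arrays scaled to a common median these counts were 8 and 4, where 67.8% of all genes read lower and 20.4% lay below all 3. Over averaged probe sets they were 5 of 7 and 5, where the shares of all genes were 52.8% and 23.8%. The chains counted changed, and Itga6 was the only alpha chain tested and below all 3 in each setting. With median scaling they were Itga1, Itga4, Itga6 and, on another probe set, Itga5. Over averaged probe sets they were Itga1, Itga6, Itga8, Itga9 and Itgav, and Itga3 lay above all 3. Itga4 and Itga5 also lay below all 3 there but were dim and not tested. Itga4, a receptor for fibronectin and VCAM that is also found on leukocytes and mesenchyme, read 8.93 against 9.23, 10.33 and 10.10. Its difference was −0.95 ± 0.63 (SE), with −0.81 and −0.29 on its other 2 probe sets above the dim level. Its 2 dim probe sets differed by 0.65 and −0.20, and the mean of all 5, itself below the dim level, by −0.32. Itga9, a receptor for tenascin, read 11.31 against 11.49, 11.71 and 11.72. Its difference of −0.33 ± 0.50 (SE) was small, with −0.60 on another probe set. All 3 probe sets of Itga4 above the dim level and both of Itga9 thus had the same sign.

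Itga3, whose integrin binds laminin in the basement membrane of tubules and glomeruli, was nearly level. It read 10.58 for the collecting duct and 10.82, 10.62 and 10.69 in the anlage, a difference of −0.13 ± 0.51 (SE), and its other probe set above the dim level had the opposite sign (0.48). The collagen-binding chain Itga1 read 10.52 against 11.65, 10.43 and 11.29, inside the anlage range. Its second probe set differed by −1.25, in place of −0.60. Itga2, also a collagen receptor, read 8.83 against 9.73, 8.39 and 8.17, a difference of 0.06 and the 1 alpha chain above 0.

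Itgav and Itga5, which like Itga8 bind the RGD motif of matrix proteins, overlapped between the structures. Itgav read 15.502 for the collecting duct and 15.28, 15.79 and 16.01 in the anlage, a difference of −0.19 ± 0.38 (SE). Another 3 probe sets of Itgav above the dim level differed by −1.60, −1.13 and 0.39. Itga5, the fibronectin receptor chain, read 8.60 against 9.67, 8.19 and 8.96. Its difference of −0.34 became −2.08 without anlage array 3 and −1.26 without array 1, and −1.57 with arrays scaled to a common median, settings in which its probe set 1458996_at was the brightest in place of 1423268_at. With 1423268_at kept, the difference was −0.33 without array 3 and 0.017 without array 1. Itga7 was dim on all 4 arrays, with values from 6.95 to 7.23.

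Endothelial cells carry several of these alpha chains. Of 7 tested endothelial markers, 7 read lower in the collecting duct and 4 lay below all anlage arrays, with a summed signal of 2815 on the collecting duct array, and of 5309, 13524 and 13819 on anlage arrays 1, 2 and 3. Pecam1 and Tie1 were dim and not tested, but the sums include them. Of 5 tested macrophage and leukocyte markers, 5 read lower. The sums, which include the dim Ptprc and Fcgr3, were 2899 for the collecting duct and 4225 to 6149 in the anlage. The part of these cells in the alpha chain values was not tested.

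**Figure D2:**
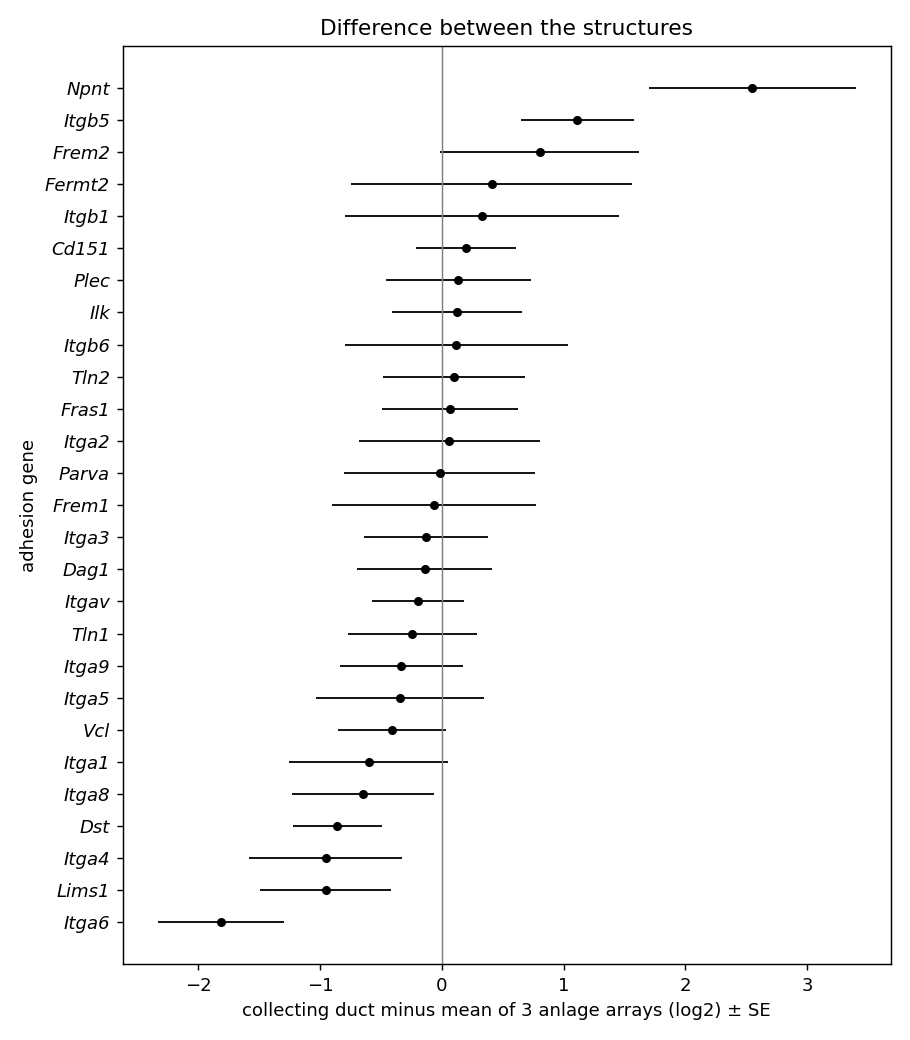
Collecting duct value minus the mean of the 3 anlage arrays (log2, points) with the standard error of the limma fit (bars), for the 27 tested adhesion genes in order of the difference. Npnt (2.55) and Itgb5 (1.11) lie at the upper end and Itga6 (−1.82) at the lower end, and the bars of most other genes cross 0.

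Among the beta chains, Itgb5 had higher values in the collecting duct on every probe set above the dim level. Itgb5 pairs with Itgav to bind vitronectin. Its brightest probe set (1456133_x_at) read 14.24 for the collecting duct and 13.46, 12.85 and 13.08 in the anlage. The difference was 1.11 ± 0.47 (SE), a 2.16-fold higher value (limma, adjusted p = 0.9999). The other 3 probe sets differed by 0.87, 0.89 and 1.31, and on each the collecting duct array was the highest of the 4. The suffix x marks probe sets whose probes may also match other transcripts, and 2 of the 4, 1417533_a_at (1.31) and 1417534_at (0.87), do not carry it. The anlage arrays were close to each other, with SDs of 0.05 to 0.35 over the 4 probe sets (n = 3). Across the alternatives the difference of Itgb5 ran from 0.78 to 1.30.

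Itgb1, the shared partner of most alpha chains here, varied more between anlage arrays than between the structures. Its brightest probe set read 12.44 for the collecting duct and 13.84, 10.92 and 11.58 for anlage arrays 1, 2 and 3. The difference of 0.33 ± 1.12 (SE) lay well inside that range, and its sign turned without array 2 (−0.27) and when its probe sets were averaged (−0.18). Without array 1 it was 1.26 on this probe set, and −0.09 on 1426918_at, which was then the brightest. The probe sets 1426918_at and 1427771_x_at differed by −0.60 and −0.59. Itgb6, an epithelial partner of Itgav, read 9.33 against 10.45, 8.15 and 9.02, in the same order of arrays. Itgb4, the hemidesmosome partner of Itga6, was dim, at 7.46 for the collecting duct and 8.15, 7.27 and 7.02 in the anlage.

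Itgb3 and Itgb8 were also dim on average. Itgb3 read 7.38 for the collecting duct and 7.11, 9.45 and 8.96 in the anlage, so that anlage arrays 2 and 3 lay above the dim level. Itgb8, which activates latent TGF-beta together with Itgav, read 7.96 against 7.23, 7.51 and 8.09. Neither was tested, and both groups overlapped.

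**Figure D3:**
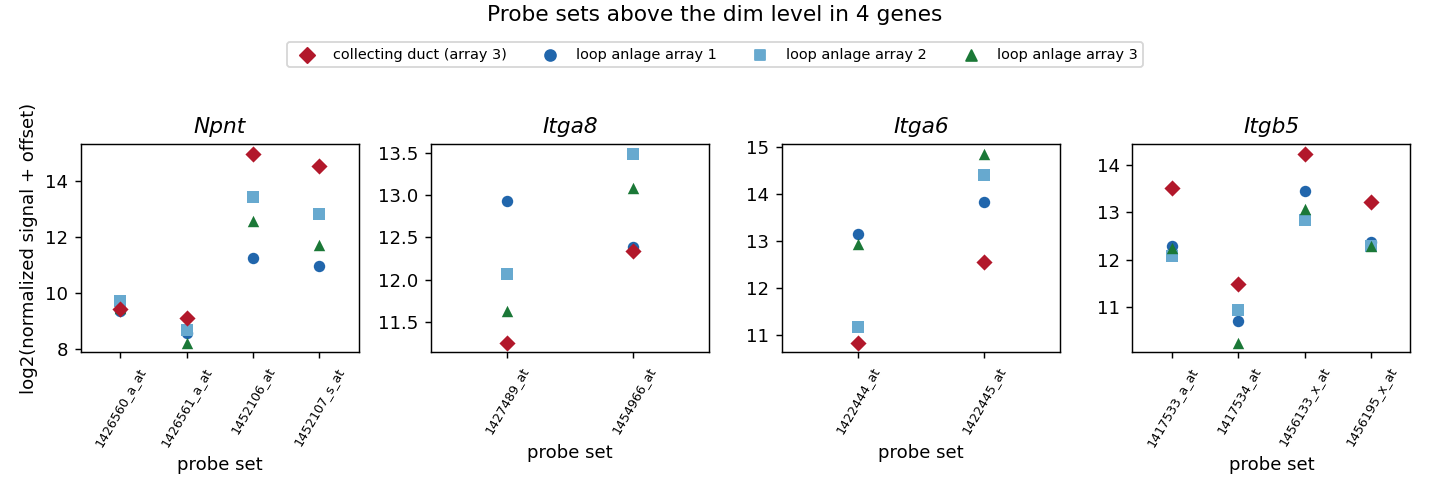
Log2 values of each probe set above the dim level for Npnt, Itga8, Itga6 and Itgb5 on the collecting duct array (red diamonds) and anlage arrays 1, 2 and 3 (circles, squares and triangles); each panel has its own axis range. The collecting duct is lowest on both probe sets of Itga8 and of Itga6 and highest on all 4 of Itgb5, while 1 of the 4 Npnt probe sets (1426560_a_at) shows it within the anlage range.

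The Fraser complex genes overlapped between the structures. Fras1, the transmembrane matrix protein whose loss gives Fraser syndrome with missing kidneys, read 12.63 for the collecting duct and 13.08, 12.49 and 12.14 in the anlage. The difference on this probe set was 0.06 ± 0.56 (SE), and 1.42 on the second, which read 12.02 against 12.01, 9.26 and 10.55. Frem1, a secreted partner, read 11.11 against 10.20, 12.21 and 11.13, a difference of −0.06. Frem2 read 11.62 against 10.03, 11.90 and 10.53, and its difference of 0.80 ± 0.82 (SE) did not pass. For Frem1 and Frem2 anlage array 2 was the highest of the 4 arrays, as it was within the anlage for Npnt.

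The adaptors that join integrin tails to actin mostly had small differences. Tln1 and Tln2, the talins that activate integrins, differed by −0.24 ± 0.53 and 0.10 ± 0.59 (SE). Ilk and Parva, which with Lims1 form the ILK-PINCH-parvin complex, differed by 0.13 ± 0.53 and −0.02 ± 0.78. Their partner Lims1 (PINCH1) read 14.30 for the collecting duct and 14.76, 15.98 and 15.02 in the anlage, below all 3 and a difference of −0.96 ± 0.54 (SE). Its other probe sets above the dim level gave −0.04, 0.04 and 0.46, so the lower value rests on 1 probe set. Vcl, which encodes vinculin, read 13.74 against 13.85, 14.07 and 14.51, a difference of −0.41 ± 0.44 (SE). The second Vcl probe set, 1416157_at, read 9.32 against 10.14, 8.14 and 9.86, with array 1 the highest, the collecting duct inside the anlage range and a difference of −0.06. Anlage array 3, the highest of the 4 for Vcl on the first probe set, also had the highest summed signal of the 5 smooth muscle markers, at 96504, against 10799 and 12058 in arrays 1 and 2 and 6583 in the collecting duct. Of these markers Cnn1 was dim, 4 of 4 tested read lower in the collecting duct, and their part in the Vcl values was not tested.

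Fermt2, the kindlin that activates integrins beside talin, had the widest anlage spread of the members. Its brightest probe set read 14.11 for the collecting duct and 14.94, 11.86 and 14.32 in the anlage, an SD of 1.63 (n = 3). The difference of 0.41 ± 1.15 (SE) turned to −0.53 without anlage array 2. A second probe set read 12.87 against 12.97, 13.90 and 14.55, a difference of −0.94, with array 2 no longer low. Without array 1 this second probe set became the brightest and the difference was −1.37, while the first probe set gave 1.06.

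The linkers and other matrix receptors held the 2 members with the least anlage spread among the 27 tested, Dst and Cd151. Dst encodes dystonin, a plakin with forms that tie hemidesmosomes to keratin filaments and others that bind actin or microtubules. It read 13.68 for the collecting duct and 14.56, 14.53 and 14.54 in the anlage, an SD of 0.02 (n = 3), and a difference of −0.86 ± 0.36 (SE). On the quantile normalized values the gap is far wider than that spread, yet limma, which borrows its spread from all genes, did not call Dst. Only 0.142% of tested genes had so small an anlage SD. The deposited signals lay further apart, at 21160, 26124 and 25409 on anlage arrays 1, 2 and 3, and 12208 on the collecting duct array. With arrays scaled to a common median the difference was −1.24. A dim Dst probe set, 1450119_at, went the other way, at 8.59 against 7.03, 7.14 and 7.07. A further one, 1421276_a_at, was level at 8.95 against 8.85, 9.10 and 8.98, and the mean of all 4 differed by −0.02.

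Plec, the plakin plectin, read 11.25 against 11.52, 10.58 and 11.23, a difference of 0.13 ± 0.60 (SE). Cd151, a tetraspanin that associates with laminin-binding integrins, read 13.73 against 13.61, 13.51 and 13.48, above all 3 by a difference of 0.20 that turned to −0.18 with arrays scaled to a common median. Its 5 probe sets above the dim level ran from −0.26 to 0.62. The brightest, 1437670_x_at, carries the suffix x described for Itgb5. Of those without it, 1427525_at differed by 0.27, with the collecting duct highest of the arrays. On 1451232_at the collecting duct lay inside the anlage range, with a difference of −0.04. Dag1, which encodes the laminin receptor dystroglycan, read 14.37 against 15.14, 13.87 and 14.51, and its probe sets ran from −0.14 to 0.68.

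Across members, probe sets of the same gene often disagreed in sign. Of 22 members with at least 2 probe sets above the dim level, 11 had 1 sign throughout: 8 lower (Itga1, Itga4, Itga5, Itga6, Itga8, Itga9, Vcl and Dst) and 3 higher (Itgb5, Fras1 and Plec). The other 11 held both signs. Of all 66 such probe sets, 29 read higher and 37 lower in the collecting duct.

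**Figure D4:**
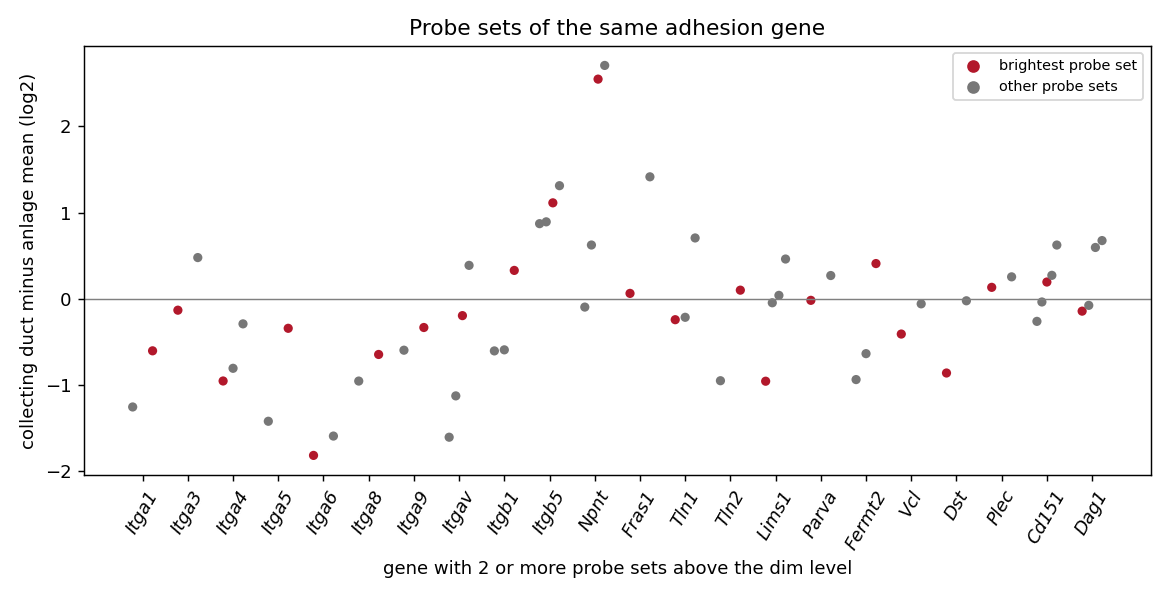
Collecting duct value minus anlage mean (log2) of each probe set above the dim level, for the 22 members with at least 2 of them; red marks the brightest probe set, which stands for the gene, and grey the others. Both probe sets of Itga6 lie below −1 and all 4 of Itgb5 above 0, while those of Npnt run from −0.09 to 2.71.

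The anlage arrays differed among themselves as much as from the collecting duct for many members, and for a similar share of all genes. The difference was smaller than the anlage SD for 16 of 27 members, and for 60.1% of all tested genes. In 11 members (40.7%), Itgb1, Itgb6, Fermt2, Dag1 and Itga1 among them, the anlage values stood in the order array 1, array 3, array 2 from high to low, which is from the lowest Gapdh ratio to the highest, against 17.5% of all tested genes. In 7 members, among them Npnt, Itga8, Frem1 and Frem2, the order was array 2, array 3, array 1 (25.9%, against 34.4% of all genes). From array 1 to array 3 to array 2, the median deposited signal also fell, from 526.5 to 344 and 206.9. The 3' to 5' ratio of actin rose in that order, from 3.06 to 5.42 and 6.41. The parts of RNA shortening and of array brightness in these values were not tested.

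A further list held 49 cell-matrix adhesion genes that are no members. Of 38 tested, 15 read higher and 23 lower in the collecting duct, 0 were called, and 8 lay above and 11 below all 3 anlage arrays (21.1% and 28.9%). Of all tested genes, 45.1% read higher and 54.9% lower, and 17.3% lay above and 24.3% below all 3. The median difference of the list was −0.12, against −0.06 for all tested genes. Grip1, a scaffold that brings Fras1 and Frem2 to the cell surface, read 11.36 in the collecting duct array against 9.21, 9.85 and 9.91, a difference of 1.71 ± 0.56 (SE). Rsu1, a binding partner of Lims1, read 11.37 against 12.74, 12.11 and 12.70, a difference of −1.14 ± 0.53 (SE).

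The others of the 6 with the largest absolute difference on that list were Sntb1, Sntb2, Utrn and Tgfb1i1. The syntrophins Sntb1 and Sntb2, which bind dystrophin and its relatives, differed by −1.77 ± 0.63 and 1.18 ± 0.86 (SE), and utrophin, Utrn, by −0.998 ± 0.46. Tgfb1i1, a focal adhesion protein also known as Hic-5, differed by −0.77 ± 0.55. For Sntb1, Utrn and Tgfb1i1 the collecting duct value lay below all 3 anlage arrays, and for Sntb2 above all 3, and none passed the test over all genes (limma, adjusted p = 0.9999).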

How the data were processed

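The authors deposited linear intensity values per probe set. The submitters' processing notes name the software GCOS, whose version is not given in the sources used here. The mean after trimming 2% at each end was 1500 on all 4 arrays, and the medians ran from 206.9 to 526.5. Arrays were quantile normalized, and log2(signal + 109.6) was taken, the offset being the 25th percentile. After 64 control probe sets were left out, 34945 of 45037 had 1 symbol in the platform table, which named the members; 932 had several and 9160 none. The brightest probe set by mean stood for a gene. Genes below 8.416, the 40th percentile, were left out of the test.

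The structures were compared with limma (version 3.58.1, R 4.3.3; lmFit, eBayes with intensity trend, two-sided, Benjamini-Hochberg over 12642 genes, threshold 0.05), which had 2 residual degrees of freedom, since only the anlage was replicated. The spread of the single collecting duct array was taken to equal that of the anlage. The procedure was tested on simulated data, where changes of the size seen in the members were rarely called. A missing call therefore does not show equal levels. With 1 array against 3 an exact permutation test reaches p = 0.25 at best and was not used. The number of arrays limits the precision. All members were named; of the other adhesion genes, the 6 tested with the largest absolute difference. Members and lists were chosen with earlier results of these data known. Alternatives were median scaling, an offset at the 10th percentile, no dim filter, the mean of all probe sets, no trend, and each anlage array left out. Leaving out an array with each gene's probe set kept was added after seeing the data. The labels give no genome build; promoters came from the RefSeq table of GRCm38.p6.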

Additional observations from a re-analysis of the deposited data

How the results depend on the processing

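In limma 0 members were called under each of the 8 alternatives, which says nothing about stability, since 0 of all 12642 genes were called with 4 arrays. By sign, 13 of 27 members stayed on 1 side in all 8, Npnt, Itga6, Itgb5, Itga8 and Dst among them. The other 14 turned at least once, and the cause was not tested. The count of 13 says little about stability, since dropping the dim filter or the trend cannot change a difference. A member outside all anlage values also tends by construction to keep its sign when an array is left out. Dst kept its sign only barely with the mean of all probe sets, at −0.015. With arrays scaled to a common median the sign turned for Cd151 (−0.18), Fras1 (−0.20), Ilk (−0.086) and Tln2 (−0.061). With the mean of all probe sets the sign turned for Dag1 (0.26), Fermt2 (−0.39), Itga3 (0.22), Itgb1 (−0.18), Itgb6 (−0.28), Parva (0.13), Tln1 (0.084) and Tln2 (−0.53). With 1 anlage array left out in turn, the differences of members whose sign turned ran from −0.48 to 0.17 for Dag1, −1.37 to 0.71 for Fermt2, −0.15 to 0.33 for Fras1, −0.59 to 0.41 for Frem1, −0.0022 to 0.34 for Ilk, −0.24 to 0.56 for Itga2, −0.27 to 0.073 for Itgb1, −0.37 to 0.77 for Itgb6, −0.56 to 0.30 for Parva, −0.12 to 0.37 for Plec and −0.11 to 0.34 for Tln2. In 4 members leaving out an array also changed the brightest probe set (Cd151, Fermt2 and Itgb1 without array 1, Itga5 without array 1 or 3), so each array was also left out with the probe sets kept, an alternative chosen after seeing the data. The sign then turned without array 1 for Dag1 (0.17), Itga5 (0.017) and Tln2 (−0.11), without array 2 for Fermt2 (−0.53), Frem1 (0.41), Ilk (−0.0022), Itga2 (−0.10), Itgb1 (−0.27), Itgb6 (−0.37), Parva (0.30) and Plec (−0.12) and without array 3 for Fras1 (−0.15), Itga2 (−0.24) and Parva (0.15). Over all genes, 3 were called higher and 11 lower without anlage array 2, in place of 0 and 0, with 1 residual degree of freedom, and no member was among them, the smallest adjusted p of a member being 0.183, for Npnt. With 2 anlage arrays left, more values lie outside their range by construction: the members above all anlage arrays numbered 4 to 8 in place of 3 (4 to 9 with probe sets kept), where 22.8% to 27.8% of all genes did, and those below all 9 to 14 in place of 8 (8 to 13 with probe sets kept), where 28.5% to 47.5% did. Scaling to a common median moved the median of all genes from −0.06 to −0.24 and that of the members to −0.34, and the members split 8 higher and 19 lower in place of 12 and 15, where 67.8% of all genes read lower in place of 54.9%. No paired analysis was possible because the structures share only replicate number 3. Detection calls were not used here, so what was called dim rests on the signal alone.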
